A study of Homo sapiens with 12 samples.

Results

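The vault RNAs VTRNA1-1, VTRNA1-2 and VTRNA1-3 and the Y RNAs RNY1, RNY3 and RNY4 were followed through an RNA immunoprecipitation experiment, in which RNA that comes down with a protein on antibody-coated beads is sequenced. The 6 genes were taken by Ensembl identifier, and all 6 were among the 60708 features of the tables. The cells were HK2, an established line of human kidney epithelial cells. Every culture carried 10 µg of a plasmid for FLAG-tagged human Arid5a, an RNA-binding protein, so the control precipitations also came from cells given the plasmid. Cultures received IL-17, an inflammatory cytokine, at 200 ng/mL or medium alone for 3 h. Lysates were precipitated with an antibody to FLAG or, as background, with mouse IgG1. This gave 4 groups of 3 libraries: IgG medium, IgG IL-17, FLAG medium and FLAG IL-17. The labels do not state whether the replicates are separate cultures, and every p-value below therefore reflects only how far these samples vary, possibly for technical reasons. Input RNA was not analysed here, so the amount of an RNA in the lysate and its recovery on beads cannot be told apart.

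Vault and Y RNAs are small noncoding RNAs made by RNA polymerase III. Vault RNAs are part of the vault, a large barrel-shaped particle built mainly of the major vault protein, although most vault RNA in a cell is outside it, and VTRNA1-1 is known to bind the autophagy receptor p62. Y RNAs fold into a stem closed by a loop and bind the Ro60 protein, which takes part in RNA quality control, and the La protein, which protects the 3′ ends of new polymerase III transcripts; they are also known for a part in starting DNA replication. Neither class normally has a poly(A) tail. The library kit named in the labels starts cDNA synthesis at poly(A), and how reads of these RNAs were primed was not measured. In these libraries RNY4 and RNY1, of the 5 genes tested, were called higher with IL-17 among FLAG precipitates, against 0.22% of all features tested. Both calls were lost in some alternative fits. Both genes also had higher fitted levels with IL-17 among IgG precipitates, where they missed the threshold.

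In the RefSeq annotation of GRCh38.p14, both families are short gene clusters. The vault RNA genes lie on chromosome 5, with VTRNA1-1 (ENSG00000199990.1) at 140711276 to 140711373, VTRNA1-2 (ENSG00000202111.1) at 140718926 to 140719013 and VTRNA1-3 (ENSG00000202515.1) at 140726159 to 140726246. They follow each other on the chromosome in that order. The Y RNA genes lie on chromosome 7, within 23.9 kb of each other, with RNY4 (ENSG00000252316.1) at 148963315 to 148963410, RNY3 (ENSG00000202354.1) at 148983755 to 148983856 and RNY1 (ENSG00000201098.1) at 148987136 to 148987248. Each is annotated as a gene of a single small RNA, without a coding region. Their lengths are 113 bases for RNY1, 102 for RNY3, 98 for VTRNA1-1, 96 for RNY4 and 88 for both VTRNA1-2 and VTRNA1-3.

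Total estimated counts ran from 746911 in IgG medium replicate 1 to 17723136 in FLAG IL-17 replicate 1. They were 2402395 to 7563477 in FLAG medium and 13653406 to 17723136 in FLAG IL-17, so depth differed between the treatments of that antibody. A count of 0 allows up to 4.02 CPM, the counts of a gene per 1000000 counts of its library, in the shallowest library and 0.169 in the deepest, for counting error only. When all libraries were thinned to 740000 counts, IgG IL-17 replicate 1, IgG medium replicate 2 and FLAG medium replicate 1 held 25318 to 32374 features, against 10591 to 21482 in the other 9. These 3 libraries and IgG medium replicate 1 stood apart, and results that rest on them are given without them as well.

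The deposited per-length table could not serve as the level of these RNAs. It holds TPM, a per-length value scaled so that each library sums to 1000000, and it lists 0 for 39 of the 64 values in which a vault or Y RNA had an estimated count above 0. RNY4 was listed at 0 TPM in 6 of 6 FLAG libraries, although its counts there ran from 26 to 5474, and in 3 of 6 IgG libraries. RNY1, the longest, had a TPM above 0 in all 12 libraries, RNY3 in 6, VTRNA1-1 in 4, RNY4 in 3, and VTRNA1-2 and VTRNA1-3 in 0. Among the genes with a count in a library, those with a TPM above 0 were longer than those at 0 in 12 of 12 libraries. The lengths are RefSeq's; no source used here gives those of the authors' quantification. Of all estimated counts of the 6 genes, 60.6% fell in values listed at 0 TPM. Levels are therefore given as CPM, and between genes as CPM per 100 bases of RefSeq length.

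**Figure D1:**
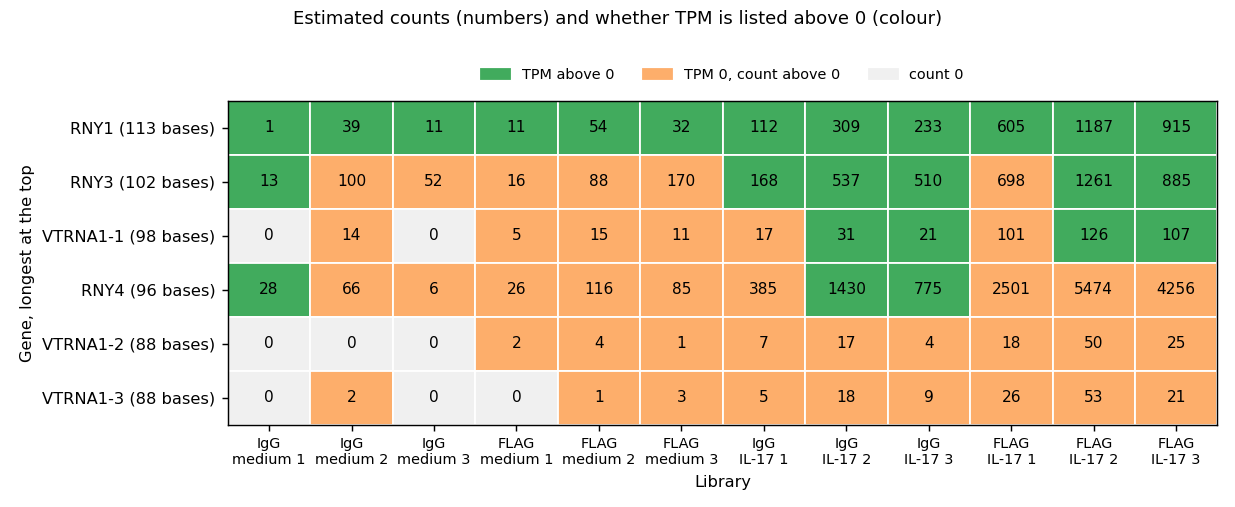
Estimated count of each gene (rows, longest at the top) in each of 12 libraries (columns), coloured by whether the deposited TPM is above 0, is 0 with a count above 0, or the count itself is 0. RNY1 (113 bases) has a TPM above 0 in all 12 libraries, whereas RNY4 (96 bases) is at 0 TPM in every FLAG library with up to 5474 counts.

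RNY4 was the most abundant of the 6 in FLAG IL-17, and its counts were whole numbers in every library. It had 10.8, 15.3 and 13.5 CPM in FLAG medium replicates 1, 2 and 3. With IL-17, the FLAG libraries had 141, 401 and 241 CPM of RNY4. All 3 FLAG IL-17 libraries lay above all 3 FLAG medium libraries. In IgG, RNY4 had 37.5, 10.8 and 1.58 CPM in medium and 71.8, 138 and 48.9 CPM with IL-17. The IgG groups did not overlap either, but the shallowest library, IgG medium replicate 1, held 37.5 CPM from 28 counts and lay far above the other medium controls.

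RNY1, whose counts were also whole in every library, had lower levels and a narrower spread in medium. Its FLAG medium libraries had 4.58, 7.14 and 5.07 CPM, and its FLAG IL-17 libraries 34.1, 86.9 and 51.8 CPM. The lowest IL-17 library of the FLAG set thus lay well above the highest medium library. In IgG libraries RNY1 had 1.34, 6.37 and 2.89 CPM in medium and 20.9, 29.9 and 14.7 CPM with IL-17. Again no medium library reached the level of an IL-17 library, although the first of the medium values rests on 1 count.

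RNY3 had smaller fitted changes with IL-17 than RNY1 and RNY4, a difference between genes that was not tested. It had 6.66, 11.6 and 26.9 CPM in FLAG medium and 39.4, 92.3 and 50.2 CPM in FLAG IL-17. IgG libraries had 17.7, 16.4 and 13.7 CPM of RNY3 in medium and 31.3, 51.9 and 32.2 CPM with IL-17. Neither antibody's groups overlapped. RNY3 was the single gene of the 6 with counts that were not whole, in all 12 libraries (for example 698.39 in FLAG IL-17 replicate 1), as an estimated count is when reads are divided between features. RefSeq lists 16 pseudogene copies named for RNY1, 16 for RNY3 and 33 for RNY4, and the share of the counts that came from such copies was not tested.

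The vault RNAs were scarce. VTRNA1-1, the most abundant of them, had 2.08, 1.98 and 1.74 CPM in FLAG medium, from 5, 15 and 11 counts. FLAG IL-17 libraries had 5.70, 9.23 and 6.06 CPM, from 101, 126 and 107 counts, above every medium library. In IgG medium VTRNA1-1 had 2.29 CPM in replicate 2 and a count of 0 in replicates 1 and 3, and IgG IL-17 libraries had 3.17, 3.00 and 1.33 CPM, so the IgG groups overlapped.

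VTRNA1-2 had 18, 50 and 25 counts in FLAG IL-17 and 2, 4 and 1 in FLAG medium. Scaled to summed library totals, that was a ratio of 4.41, with an exact 95% interval of 2.06 to 11.3 for counting error only. In IgG it had 7, 17 and 4 counts with IL-17 and 0 in each medium library, at least 3.16-fold higher against a floor of 3 counts over the group. VTRNA1-3 had 26, 53 and 21 counts in FLAG IL-17 and 0, 1 and 3 in FLAG medium, a ratio of 8.30 with an exact 95% interval of 3.14 to 31.1. In IgG libraries VTRNA1-3 had 5, 18 and 9 counts with IL-17 and 2 in medium, all in replicate 2, a ratio of 5.41 with an exact 95% interval of 1.38 to 46.6. For both genes the IL-17 libraries of each antibody lay above its medium libraries in CPM, but most medium counts were at or under the floor.

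**Figure D2:**
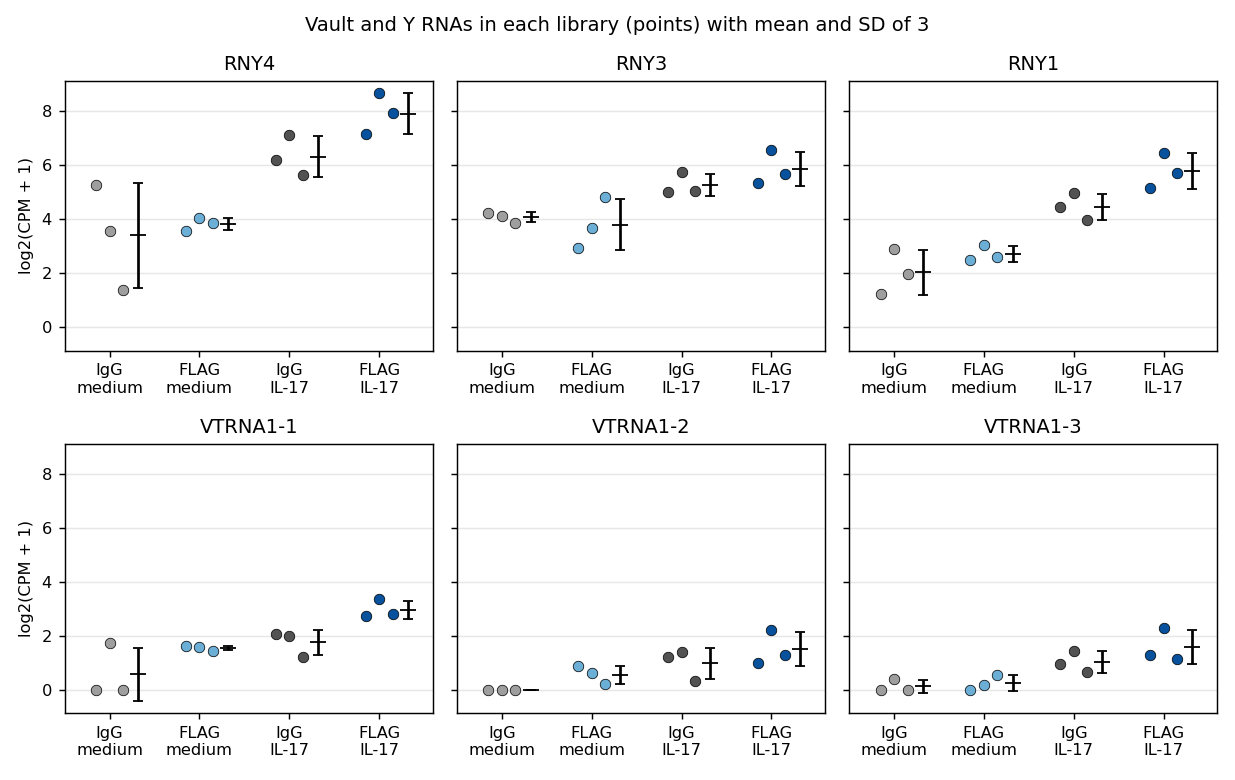
Level of each gene as log2(CPM + 1) in each library (points, replicates 1 to 3 from left to right) of the 4 groups, with the mean and SD of 3 libraries. IL-17 libraries lie above medium libraries of the same antibody for every gene except VTRNA1-1 in IgG, where IgG medium replicate 2 (2.29 CPM) lies above IgG IL-17 replicate 3 (1.33 CPM). Of all features tested, 3.29% did so in FLAG and 7.23% in IgG. VTRNA1-2 and VTRNA1-3 are not read against these shares. A count of 0 in IgG medium replicate 1 allows up to 4.02 CPM, so the vault RNAs are not resolved there.

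Per length, RNY4 had the highest mean in FLAG IL-17, while RNY3 and RNY4 had similar means in FLAG medium. RNY4 averaged 272 ± 137 CPM per 100 bases (SD, n = 3) in FLAG IL-17, followed by RNY3 with 59.4 ± 27.4 (SD, n = 3) and RNY1 with 51.0 ± 23.8 (SD, n = 3). The means of RNY3 and RNY1 there lay within each other's spread between libraries, a spread that both genes share. VTRNA1-1 followed at 7.14 ± 1.98 CPM per 100 bases (SD, n = 3), then VTRNA1-3 at 2.48 ± 1.68 and VTRNA1-2 at 2.31 ± 1.62 (SD, n = 3 each), which lay within each other's spread. In FLAG medium the means of RNY3 and RNY4 lay within each other's spread, at 14.8 ± 10.4 and 13.8 ± 2.36 CPM per 100 bases (SD, n = 3 each). RNY3 exceeded RNY1 in 12 of 12 libraries, and RNY4 exceeded RNY3 in 9 of 12. Each Y RNA exceeded each vault RNA in every library.

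The first question was whether FLAG precipitation recovered more of these RNAs than IgG in medium. Of the 6 genes, 5 passed the filter on low counts and were tested by edgeR's quasi-likelihood test over 24040 features. VTRNA1-2 was not, since it reached the filter's 1.44 CPM in 2 libraries, and VTRNA1-3 passed through 3 libraries that were all from IL-17 cultures. In medium, 0 of 5 were called by edgeR at a Benjamini-Hochberg adjusted p under 0.05, 0 had an unadjusted p under 0.05, and DESeq2 and limma called 0. Over all features, edgeR called 0% higher and 0% lower, and 4.17% were higher at an unadjusted edgeR p under 0.05. DESeq2 called 93 of all 24040 features higher and 45 lower. Limma called 0 on log2(TPM + 1), and 1 higher and 0 lower on log2(TPM + 0.1). RNY1 had a log2 fold change of 0.42 ± 0.64 (SE; edgeR adjusted p = 1) and RNY4 one of -0.79 ± 0.83 (SE; edgeR adjusted p = 0.998). The 95% interval of RNY4 ran from -2.49 to 0.92 on the log2 scale. Its direction rested on the shallowest library: without IgG medium replicate 1 it was 1.23. With the 4 libraries that stood apart left out, it was 3.18 (edgeR adjusted p = 0.0313), which set FLAG medium against 1 IgG library assumed to vary like the other groups. In that fit 981 of 28872 features were called higher and 256 lower, and the median log2 fold change of all features was 1.60. CPM of the 5 tested genes overlapped between antibodies, where 4.87% of all features tested were higher in FLAG without overlap. The untested VTRNA1-2 had 7 counts in FLAG medium against 0 in IgG medium.

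With IL-17, RNY1, RNY3, RNY4 and VTRNA1-1 had higher fitted levels in FLAG than in IgG, as had VTRNA1-3, and 0 of 5 were called by edgeR, against a background of 0% called higher. RNY4 had a log2 fold change of 1.89 ± 0.77 (SE; edgeR adjusted p = 0.923) and RNY1 one of 1.69 ± 0.58 (SE; edgeR adjusted p = 0.923). These were the 2 genes with an unadjusted edgeR p under 0.05, where 0.566% of all features were higher at that threshold. DESeq2 and limma also called 0, with 1 gene each at an unadjusted p under 0.05. Of all 24040 features, DESeq2 called 1 higher and 8 lower, and limma 0. In limma the largest value on log2(TPM + 1) was negative, that of RNY4 given below, so its 1 gene is not read as a rise in FLAG. Over all features, 39.8% had a higher fitted level in FLAG, and the median log2 fold change was -0.33. The antibodies were separated in CPM for RNY4, RNY1 and VTRNA1-1, where 3.58% of all features tested were higher in FLAG without overlap. VTRNA1-1 had a log2 fold change of 1.84 ± 1.42 (SE; edgeR adjusted p = 0.923), and RNY3 one of 0.88 ± 0.63 (SE; edgeR adjusted p = 0.923). On log2(TPM + 1) the values turned to -8.41 for RNY4 and -3.19 for RNY3, since the deposited TPM is 0 for RNY4 in all FLAG IL-17 libraries and for RNY3 in replicate 1 of them.

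A further question was whether precipitated amounts differed between IL-17 and medium for each antibody. In FLAG libraries RNY1 and RNY4 rose, with 2 of 5 tested genes called higher by edgeR and 0 lower, against 0.22% of all features called higher and 0.00416% called lower. With RNY3, 3 of 5 had an unadjusted p under 0.05, against 3.05% of features higher at that threshold. RNY4 had a log2 fold change of 4.94 ± 0.89 (SE; edgeR adjusted p = 0.0131) and RNY1 one of 4.0 ± 0.65 (SE; edgeR adjusted p = 0.00522). The fitted level of RNY4 was thus 30.7-fold higher, in 3 of 3 libraries for both. Summed counts over summed library totals, without TMM factors, gave lower ratios of 17.9 for RNY4 and 9.27 for RNY1. RNY3 had a log2 fold change of 2.48 ± 0.66 (SE; edgeR adjusted p = 0.233) and VTRNA1-1 one of 2.48 ± 1.47 (SE; edgeR adjusted p = 0.472). The fitted value of VTRNA1-3, 3.62 ± 2.04 (SE), is a description, since its IL-17 libraries took it past the filter. The IL-17 libraries lay above the medium libraries for RNY1, RNY3, RNY4 and VTRNA1-1, where 3.29% of features tested did so. They also did for VTRNA1-2, which failed the filter, and VTRNA1-3, which passed it through IL-17 libraries alone, so neither is read against that share.

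Both calls were lost in some fits that left out 1 library. Over all features, 53 of 24040 were called higher in the main fit. Without FLAG medium replicate 1, 2 or 3, the features called higher were 11, 6 and 5. Without FLAG IL-17 replicate 1, 2 or 3 they were 47, 7 and 21. These fits tested 27143 to 28647 features. RNY1 was called in 8 of 12 fits that left out a library and RNY4 in 8 of 12, with log2 fold changes of 3.29 to 4.07 and 4.21 to 5.01. RNY1 lost its call without FLAG medium replicate 2 (edgeR adjusted p = 0.0641) or 3 (0.189) or FLAG IL-17 replicate 2 (0.194) or 3 (0.0948). RNY4 lost its call without FLAG medium replicate 1 (edgeR adjusted p = 0.0865), 2 (0.1) or 3 (0.282) or FLAG IL-17 replicate 2 (0.0948). With the 4 libraries left out, both were called, with edgeR adjusted p of 3.09e-05 for RNY1 and 1.51e-05 for RNY4, and so was RNY3 (0.0146). That fit called 464 of 28872 features higher and 188 lower, with a median log2 fold change of -0.10. Thinned to equal depth, the log2 fold changes were 3.74 for RNY1 (edgeR adjusted p = 0.149) and 4.61 for RNY4 (0.0746), so neither was called. The thinned fit called 5 of 10153 features higher and 1 lower. Over all alternatives run, adjusted p by edgeR, DESeq2 or limma ran from 1.33e-06 to 0.538 for RNY1, called in 16 of 25. For RNY4, which had no limma value, adjusted p by edgeR or DESeq2 ran from 3.14e-11 to 0.282, and it was called in 15 of 23. The median log2 fold change of all features was -0.29, and it was -0.89 with RLE factors and -0.92 with library size only. Relative to that median, RNY4 was higher by 5.23, 5.34 and 5.20 and RNY1 by 4.29, 4.41 and 4.25 on the log2 scale under these 3 scalings.

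In IgG libraries, which served as background, 0 of 5 genes were called by edgeR, against 0.0125% of all features called higher. The fitted levels of RNY1 and RNY4 were higher with IL-17, with log2 fold changes of 2.73 ± 0.66 (SE; edgeR adjusted p = 0.275) and 2.26 ± 0.84 (SE; edgeR adjusted p = 0.830). These were the 2 genes with an unadjusted edgeR p under 0.05, where 3.79% of all features were higher at that threshold. DESeq2 called 1, RNY1 (adjusted p = 0.00813), and of all 24040 features it called 121 higher and 203 lower. Limma called 0 of the genes. RNY3 had a log2 fold change of 1.4 ± 0.67 (SE; edgeR adjusted p = 0.895). Over the 25 alternatives run, adjusted p by edgeR, DESeq2 or limma ran from 0.00445 to 1 for RNY1 and from 0.000202 to 1 for RNY4, each called in 2. Without IgG medium replicate 1, RNY4 had a log2 fold change of 4.29 and was called (edgeR adjusted p = 0.00492). That fit called 64 of 28890 features higher and 11 lower. With the 4 libraries left out, RNY1 was called at 3.39 (edgeR adjusted p = 0.00445) and RNY4 at 6.30 (0.000202), from 1 IgG medium library. In that fit 1191 of 28872 features were called higher and 440 lower, and the median log2 fold change of all features was 2.17. CPM did not overlap between treatments for RNY1, RNY3 and RNY4, where 7.23% of features tested were higher with IL-17 without overlap. VTRNA1-2 and VTRNA1-3 did not overlap either and, for their part in the filter, are not read against that share.

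The change of FLAG over IgG with IL-17, which tests whether the 2 antibodies' responses differed, gave 0 of 5 calls by edgeR. By edgeR, 0% of all features were called in either direction. DESeq2 and limma also called 0 of the genes. Of all 24040 features, DESeq2 called 12 higher and 96 lower, and limma 0. RNY4 had a difference of 2.67 ± 1.13 on the log2 scale (SE; edgeR adjusted p = 0.664), with a 95% interval of 0.35 to 5.00. It was the single gene of the 5 with an unadjusted edgeR p under 0.05, where 1.07% of all features were higher at that threshold. RNY1 had 1.27 ± 0.86 (SE; edgeR adjusted p = 0.756) and RNY3 1.12 ± 0.91 (SE; edgeR adjusted p = 0.792). The intervals of VTRNA1-1 and VTRNA1-3 spanned 0 widely, with values of 0.71 ± 2.06 and 0.50 ± 3.19 (SE). The value of RNY4 was 0.72 to 3.26 in fits that left out a library and -1.59 with the 4 libraries left out, where the median of all features was -2.17. The rise of RNY1 and RNY4 in FLAG was therefore not shown to differ from the change in the IgG control.

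**Figure D3:**
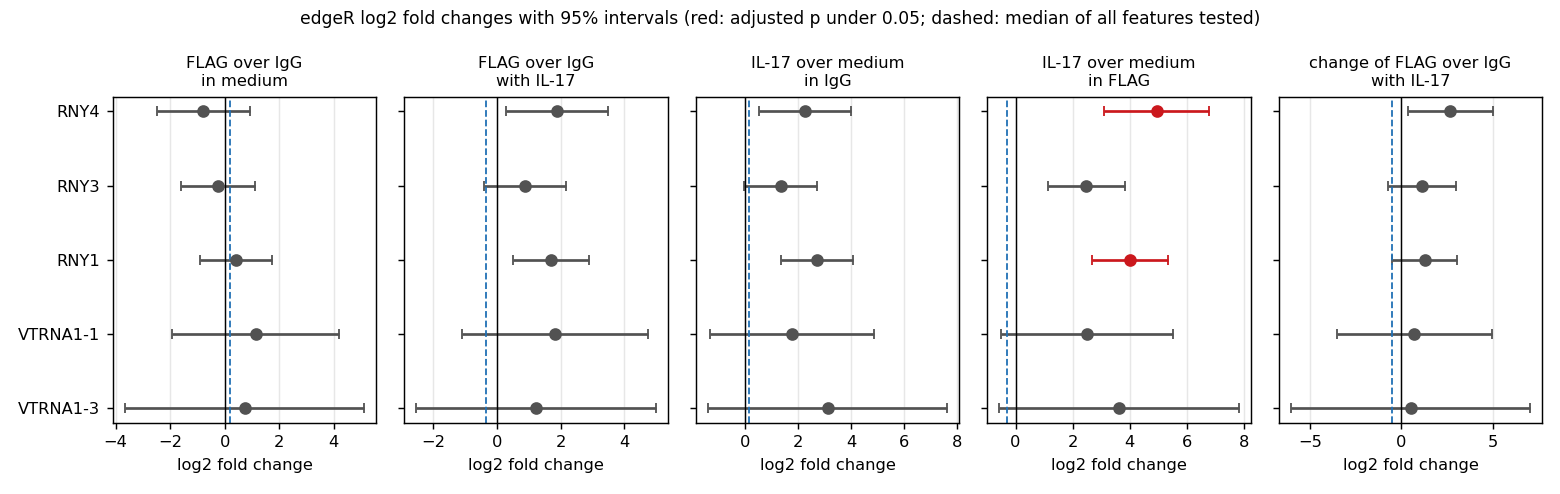
Log2 fold changes by edgeR of the 5 genes tested (rows) in the 5 comparisons (panels), with 95% intervals; red marks an adjusted p under 0.05 and the dashed line the median of all 24040 features tested. RNY4 (4.94) and RNY1 (4.0) are called in the IL-17 comparison of FLAG libraries, and intervals of the vault RNAs reach 0 in every panel.

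Other features listed at 0 TPM despite counts were described as well, without their lengths being looked up. Beside the vault and Y RNAs, 56 tested features had at least 20 counts and 0 TPM in some library. Their median log2 fold change with IL-17 in FLAG libraries was 1.04, with 38 of 56 higher and 1 called by edgeR. Of all features tested, 43.7% were higher and 0.22% were called higher. With the 6 genes included, 36, 40 and 48 features met this rule in the FLAG IL-17 libraries, and 19, 25 and 28 in FLAG medium. Features could thus enter through the deeper IL-17 libraries in which they are then read as high, so their values are a description only. The median was -0.29 over all features tested. In IgG libraries the medians were -0.04 for these 56 features and 0.18 for all features.

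Shares within a library do not depend on depth scaling. RNY4 made up 70.3%, 68.2% and 72.6% of the summed counts of RNY1 and RNY4 in FLAG medium and 80.5%, 82.2% and 82.3% in FLAG IL-17. The means were 70.4 ± 2.21% and 81.7 ± 0.996% (SD, n = 3 each), a difference of 11.3 percentage points without overlap. An exact two-sided permutation test gave p = 0.1, the smallest that 3 against 3 libraries allow, and 0.4 after Benjamini-Hochberg adjustment over 8 comparisons of shares. Wilson 95% intervals in FLAG medium were wide, from 54.2% to 82.5% in replicate 1 with 37 counts, which overlapped the intervals of all 3 FLAG IL-17 libraries. The interval of FLAG medium replicate 3 overlapped that of FLAG IL-17 replicate 1. In IgG medium the share was 96.6%, 62.9% and 35.3%, from 29, 105 and 17 counts, on both sides of the IgG IL-17 libraries at 77.5%, 82.2% and 76.9%.

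The summed level of the vault RNAs was 2.64 ± 0.269 CPM in FLAG medium and 11.2 ± 4.83 CPM in FLAG IL-17 (SD, n = 3 each), while that of the Y RNAs was 33.9 ± 11.7 and 379 ± 185 CPM. As a share of the 6 genes' counts, the vault RNAs were 11.7%, 7.19% and 4.97% in FLAG medium and 3.67%, 2.81% and 2.46% in FLAG IL-17. The groups did not overlap (exact two-sided permutation p = 0.1, the smallest possible, and 0.4 adjusted over the 8 comparisons). The Wilson 95% interval of FLAG medium replicate 3, 3.03% to 8.03%, overlapped those of FLAG IL-17 replicates 1 and 2, 3.13% to 4.30% and 2.47% to 3.19%. In IgG the share was 0%, 7.24% and 0% in medium and 4.18%, 2.82% and 2.19% with IL-17, and 0 of 42 and 0 of 69 counts in IgG medium replicates 1 and 3 allow up to 8.38% and 5.27% by Wilson 95% intervals. Both shares were chosen after their values were seen.

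**Figure D4:**
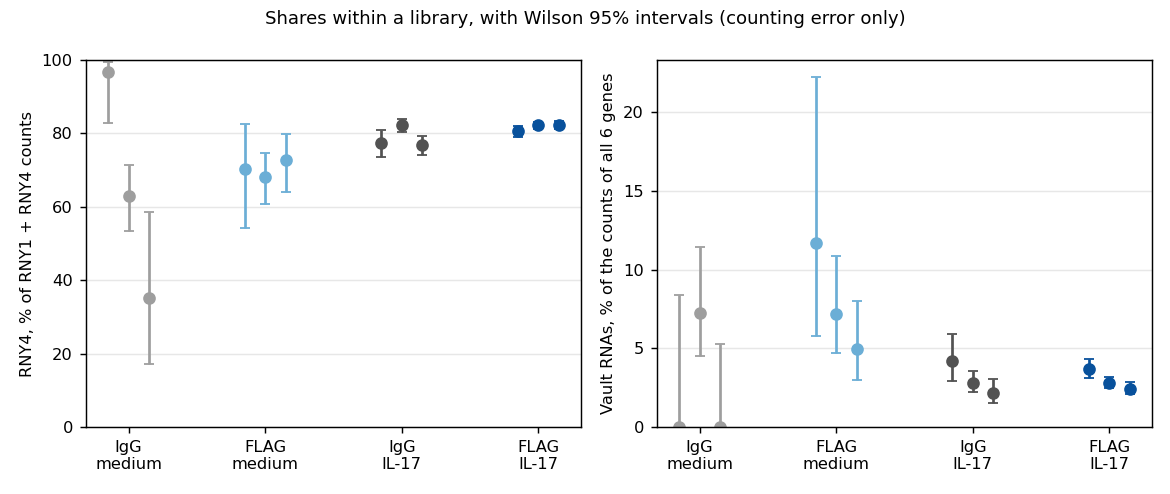
Share of RNY4 in the counts of RNY1 and RNY4 (left) and of the 3 vault RNAs in the counts of all 6 genes (right), in percent, for each library with Wilson 95% intervals that cover counting error only. FLAG IL-17 libraries lie at 80.5% to 82.3% on the left and at 2.46% to 3.67% on the right.

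The genes also varied together. Over the 12 libraries, which share depth and treatment, Pearson correlations of log2(CPM + 1) were 0.863 between RNY1 and RNY4, 0.856 between RNY3 and RNY4, 0.846 between RNY1 and RNY3, and 0.905 between RNY1 and VTRNA1-1. The lowest of all pairs was 0.655, between VTRNA1-1 and RNY3. Among 12696 other features with a mean of at least 5 CPM, those most like RNY4 were 12 features with the same values as each other, ENSG00000199270.1 among them, at r = 0.985. The feature most like RNY3 was ENSG00000269867.1 at r = 0.965, and those most like RNY1 were ENSG00000203811.1 and ENSG00000203852.3, both at 0.941 with identical values. The files do not pair these identifiers with gene names.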

How the data were processed

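The authors deposited estimated counts per Ensembl feature for 12 libraries, and a table named for FPKM that holds TPM, since each column sums to 1000000. GRCh38 and hg38 are the builds in the notes. The tools, per the submitters' processing notes, were R 4.2.0, RSEM 1.3.1, DESeq2 1.36.0 and STAR 2.7.9; no source used here gives their roles, the annotation or the use of strand. Groups and replicate numbers came from sample titles. Counts were rounded, filtered (filterByExpr, minimum count 10), scaled by TMM and fitted over all 12 libraries with edgeR 4.0.16 in R 4.3.3. The common dispersion was 0.953 and is shared by all groups. CPM used total counts. The procedure was run on simulated counts with a lower dispersion, which does not show how it behaves at the dispersion of these libraries. Alternatives were other scalings and filters, DESeq2 1.42.0, limma 3.58.1 with a pseudocount of 1 or 0.1 on log2 TPM, only the groups compared, a replicate block and leaving out each library; leaving out 4 libraries, thinning and keeping all 6 genes were chosen after seeing the data. The genes named were the 6 and, for those with a mean of at least 5 CPM, the 2 most correlated features. Genes and lists were chosen with earlier results of these data known. Protein partners, polymerase III genes and HK2 markers were not analysed here, because identifiers are not paired with symbols. Intervals and floors (3 counts) cover counting error only.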

Additional observations from a re-analysis of the deposited data

How the results depend on the processing

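Genes called in the IL-17 comparison of FLAG libraries numbered 2. They numbered 0 with RLE factors (4 of all 24040 features higher, 1 lower) and thinning (5 and 1 of 10153, chosen after seeing the data). Limma also called 0 of them, with 4 and 4 of 24040 on log2(TPM + 1) and 2 and 0 on log2(TPM + 0.1). It had no value for RNY4, at 0 TPM in all FLAG libraries, and could not call it. The number was 1 with library size only (37 and 1 of 24040), upper-quartile factors (7 and 0 of 24040) and the strict filter of 50 counts in 3 libraries (4 and 1 of 13278). It was 3 with no filter (137 and 91 of 48364), DESeq2 (155 and 793 of 24040) or a replicate block (99 and 37 of 24040). The fit without the 4 libraries is given above. Fits without 1 library gave 0 to 2. In IgG (0), DESeq2 gave 1, leaving out the 4 libraries 2 and fits without 1 library 0 to 1. For FLAG over IgG in medium (0), leaving out the 4 libraries gave 1. With IL-17, and for the change, the count stayed 0 in all alternatives run.

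Against the 25 log2 fold changes of the main fit, 19 values from the alternatives changed sign and 534 kept both sign and call. With the sign kept, 17 lost a call and 8 gained one. With IL-17, FLAG over IgG was -8.41 and -10.6 for RNY4 and -3.19 and -4.29 for RNY3 on log2(TPM + 1) and log2(TPM + 0.1), and the change for RNY4 was -4.54 and -5.65; TPM listed at 0 enters these values. Without the 4 libraries, FLAG over IgG in medium was 3.18 for RNY4 and 0.58 for RNY3, and the change was -1.59 for RNY4, -0.0093 for RNY3, -5.31 for VTRNA1-1 and -3.61 for VTRNA1-3. Fits without 1 library ran, in medium, from -1.38 to 1.23 for RNY4, -1.12 to 0.20 for RNY3 and -0.91 to 3.9 for VTRNA1-3, and for the change from -4.98 to 1.41 for VTRNA1-1 and -2.67 to 1.97 for VTRNA1-3. The cause of these moves was not tested. Same-numbered libraries deviated together (r over 0.1) in 8 of 18 pairs, 3 of them between IgG IL-17 and FLAG medium, which are not compared. In none of the comparisons made did all 3 pairs do so, so the numbers were not taken to pair the samples, and whether they share an origin is not stated. The replicate block called RNY1, RNY3 and RNY4 with IL-17 in FLAG. No value could be computed on TPM where a gene is 0 in all libraries compared.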
